A study of Homo sapiens with 6 samples.

Results

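Transcripts of the 4 alpha-tubulin genes TUBA1A (ENST00000301071), TUBA1B (ENST00000336023), TUBA1C (ENST00000301072) and TUBA4A (ENST00000248437) were examined in PC3, a human prostate cancer cell line labelled as sensitive to docetaxel, and in PC3-DR, a line derived from PC3 and labelled as resistant. The members were chosen by transcript identifier, 1 row per gene, and all 4 were present among the 102731 rows of the deposited mRNA table. Any other transcripts of these genes, and any other alpha-tubulin genes, were not examined. Each level is therefore that of 1 transcript and may not be that of the whole gene. None of the 4 identifiers was in the lncRNA table, which holds 381961 rows. RNA was sequenced from 3 libraries of each line.

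PC3-DR was obtained from PC3 by stepwise docetaxel selection. The labels describe 48 h pulses at 4 and 8 nM over 5 cycles and at 8 and 12 nM over 12 cycles. Continuous exposure then began at 10 nM and rose in steps of 5 nM to 50 nM, and the line was kept for 1 month at 40 nM. PC3-DR is 1 selected line, and nothing in the labels ties the 3 libraries of a line to separate cultures, so p-values measure only the spread between these libraries, which may be technical. Whether docetaxel was present at harvest is not stated either. Markers of the cell type could not be checked here, because no table used here pairs transcript identifiers with gene names.

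Microtubules are hollow polymers of heterodimers of alpha- and beta-tubulin, and they form the mitotic spindle. Docetaxel is a taxane that binds the beta subunit inside the polymer and stabilises it, so alpha-tubulin is the partner of the drug's target rather than its binding site. Alpha-tubulin is known for modifications such as acetylation of a lysine that faces the lumen and the removal and return of a C-terminal tyrosine. TUBA1B and TUBA1C are broadly expressed isotypes, TUBA1A is best known from developing neurons, and TUBA4A differs in that its gene does not encode the final tyrosine. TUBA1A, TUBA1B and TUBA1C are near-identical in coding sequence, so reads could be shared between them, and how the authors assigned such reads is not given in the sources used here.

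TUBA1A, TUBA1B and TUBA1C are neighbours on chromosome 12, and TUBA4A lies on chromosome 2. The stretch of 60 bases before a start site is shown for each gene so that the 2 isotypes with the highest levels, TUBA1B and TUBA1C, can be compared with the other two. Sequences are from RefSeq promoters on GRCh38.p14, 5′ to 3′ on the gene's strand. Capitals mark a match to TATAA or TATATA, the letters of 2 TATA-box forms that can overlap, searched on the gene's strand only. In TUBA1C the forms do overlap. Only TATATA is in capitals there, and the lower-case a that follows it completes a TATAA. All 4 genes had an entry, and TUBA1C had 3 start sites, of which the one with a match is printed.
TUBA1A, chr12:49189081-49189140, minus strand: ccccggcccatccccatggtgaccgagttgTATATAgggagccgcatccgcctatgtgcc
TUBA1B, chr12:49131396-49131455, minus strand: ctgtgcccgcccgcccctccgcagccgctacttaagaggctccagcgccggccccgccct
TUBA1C, chr12:49265022-49265081, plus strand: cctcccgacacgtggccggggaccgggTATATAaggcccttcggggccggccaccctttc
TUBA4A, chr2:219253919-219253978, minus strand: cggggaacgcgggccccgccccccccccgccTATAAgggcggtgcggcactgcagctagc

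The match began 30 bases before the start in TUBA1A, 33 bases before it in TUBA1C and 29 bases before it in TUBA4A. These letters are not in the TUBA1B window, nor in the windows of the other 2 TUBA1C starts. Among 35116 RefSeq promoters, 5.64% held either form in the same 60 bases. Which TUBA1C start serves the listed transcript is not given in the sources used here. A match describes letters only, and the expression values do not test it.

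Levels are in FPKM, read numbers scaled for transcript length and library total, so that the isotypes can be compared with each other within a library. The library totals read off the values lay between 14411000 and 16186000 in 5 libraries and at 43153000 in PC3-DR replicate 1. Libraries also differed over the whole mRNA table. PC3-DR replicate 1 had 14943 transcripts at 1 FPKM or more and PC3 replicate 3 had 22650, while the other 4 libraries had between 26885 and 29399. In PC3 replicate 3, 48.3% of transcripts were listed at 0, against between 31.4% and 37.7% in the other 5 libraries. In bulk RNA, fewer cells with a transcript and less of it per cell cannot be told apart.

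TUBA1B, the ubiquitous isotype, had the highest mean of the 4 and spanned the widest range in FPKM. Replicates 1 to 3 of PC3 gave 51.3, 15.0 and 0.512 FPKM for it. The same replicates of PC3-DR gave 53.8, 11.3 and 32.4 FPKM. Replicate 1 of each line was highest, PC3 replicate 3 was far below every other library, and the lines overlapped.

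The whole reads behind the TUBA1B values were 1351, 357 and 12 in PC3 and 3780, 295 and 822 in PC3-DR, on a recovered length of 1627 nt. Counting error therefore does not span the gap. The exact 95% Poisson interval was 0.264 to 0.894 FPKM in PC3 replicate 3 and 13.5 to 16.6 FPKM in PC3 replicate 2, and it covers counting error only. TUBA1B ranked between 24 and 194 among all rows in 5 libraries and at 34942 in PC3 replicate 3. The highest PC3 value was 100.2 times the lowest, and the highest PC3-DR value was 4.76 times the lowest.

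TUBA1C, the other broadly expressed isotype, varied much less. Its PC3 values were 11.2, 11.0 and 4.83 FPKM for replicates 1 to 3, and its PC3-DR values were 21.1, 9.75 and 13.3 FPKM. PC3-DR replicate 1 was highest and PC3 replicate 3 lowest, while PC3-DR replicate 2 lay below 2 of the PC3 libraries, so the lines overlapped. The mean was 9.03 ± 3.64 FPKM over the PC3 libraries and 14.7 ± 5.79 FPKM over the PC3-DR libraries (SD, n = 3 each). These levels rest on between 209 and 2729 reads per library over a recovered length of 3001 nt, and TUBA1C ranked between 134 and 425 in all 6 libraries.

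TUBA1A, the isotype known from neurons, was lower on average than TUBA1B and TUBA1C in both lines. Among all rows, including those at 0, it stood above 61.8% in PC3 replicate 2 and above 80.6% to 92.7% in the other libraries. The PC3 libraries gave 1.94, 0.643 and 1.12 FPKM for replicates 1 to 3, and the PC3-DR libraries gave 1.67, 1.47 and 1.54 FPKM. The 3 PC3-DR values lay inside the range of the PC3 values. Its mean was 1.23 ± 0.65 FPKM for PC3 and 1.56 ± 0.10 FPKM for PC3-DR (SD, n = 3 each), from between 18 and 138 reads per library. At such read numbers counting error is wide, as in PC3 replicate 2, where the 95% Poisson interval ran from 0.381 to 1.02 FPKM.

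TUBA4A, which lacks the encoded tyrosine, had levels of 3.40, 1.45 and 0 FPKM for PC3 replicates 1 to 3. For PC3-DR these levels were 3.50, 3.43 and 0 FPKM. Each line thus had 1 library at 0, replicate 3 in both, and the lines overlapped. The values above 0 correspond to 119 and 46 reads in PC3 and to 327 and 119 reads in PC3-DR. A limit of 3 reads corresponds to 0.0963 FPKM in PC3 replicate 3 and to 0.0889 FPKM in PC3-DR replicate 3, well below the other 4 libraries. Since an exact 0 in such a table can also be a failed estimate, TUBA4A is given by library and without a mean.

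**Figure D1:**
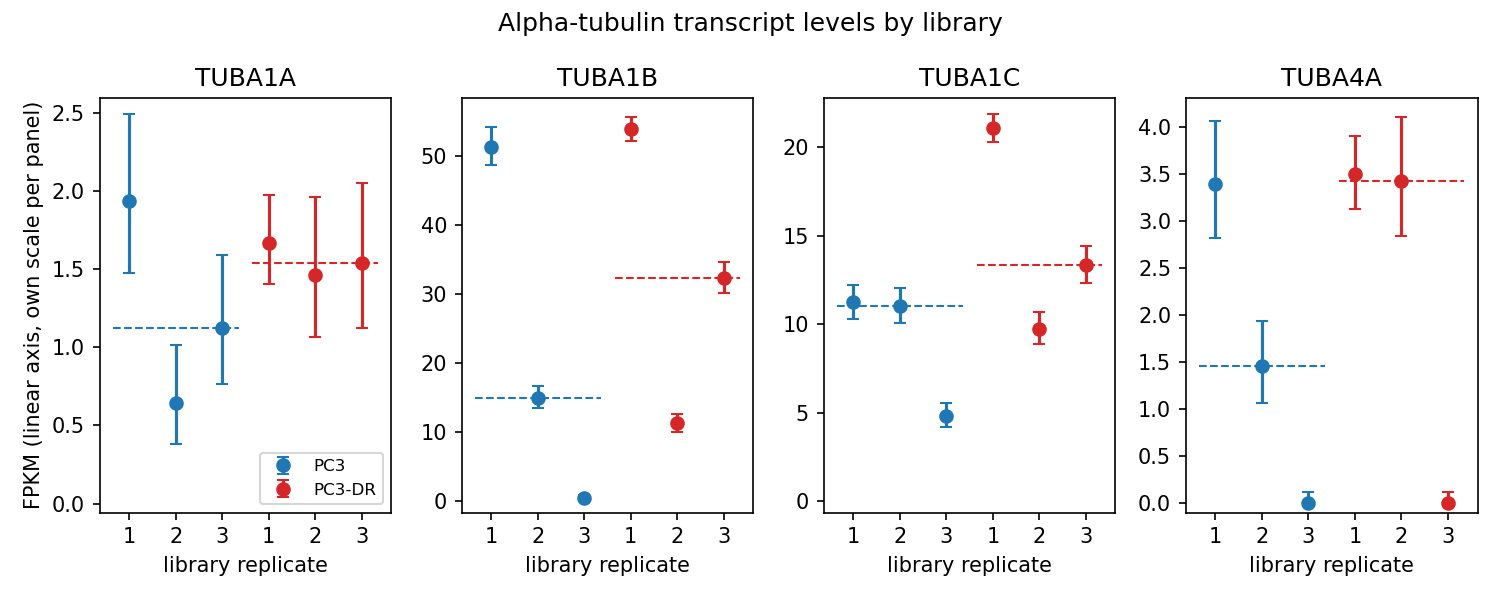
Levels of the 4 alpha-tubulin transcripts in FPKM on linear axes with a scale per panel, for PC3 (blue) and PC3-DR (red) replicates 1 to 3. Points are library values, bars are exact 95% Poisson intervals of the recovered reads, and dashed lines are group medians. TUBA1B spans 0.512 to 53.8 FPKM with intervals far narrower than the spread, and TUBA4A is listed at 0 in replicate 3 of each line.

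The comparison of PC3-DR with PC3 asked whether the resistant line carries more or less of each alpha-tubulin transcript than its parent. None of the 4 passed in limma, fitted to log2(FPKM + 1) over all 24937 tested transcripts, with Benjamini-Hochberg adjusted p under 0.05. All 4 members passed the filter, which asked for 1 FPKM or more in 3 or more of the 6 libraries. Over all tested transcripts 1 was called, or 0.00401%. Before adjustment, 0 of the 4 members and 6.1% of all tested transcripts had a limma p under 0.05. Groups did not overlap for 0 of the 4 members and for 11.1% of all tested transcripts.

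For TUBA1B the fitted PC3-DR minus PC3 difference was 1.38 ± 1.09 (SE) on the log2(FPKM + 1) scale, with a 95% interval from -1.03 to 3.80 and an adjusted p of 0.898 in limma. TUBA1C had a difference of 0.66 ± 0.45 (SE), an interval from -0.34 to 1.67 and an adjusted p of 0.891 in limma. Both intervals include 0 and reach well above it. The difference was 0.24 ± 0.35 for TUBA1A (interval -0.55 to 1.02, adjusted p = 0.914 in limma). It was 0.30 ± 0.68 for TUBA4A (interval -1.21 to 1.80, adjusted p = 0.935 in limma), a value that depends on the pseudocount because each line has a library at 0.

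The median of the 4 differences was 0.48, and all 4 were above 0, whereas the median over all tested transcripts was -0.13 and 39.9% of them were above 0. Rescaling the libraries by the median of ratios moved the median over all tested transcripts to 0.05 and the members to 1.68 for TUBA1B, 0.97 for TUBA1C, 0.58 for TUBA4A and 0.43 for TUBA1A. The differences depended on single libraries. Without PC3 replicate 3, in which TUBA1B was lowest, its difference was -0.03, and without PC3 replicate 1 it was 2.52. TUBA1C stayed above 0 whichever library was left out, at 0.31 without PC3 replicate 3, 0.39 without PC3-DR replicate 1 and between 0.70 and 0.90 without each of the other 4. TUBA4A fell on either side of 0, with -0.28 without PC3 replicate 3 and 1.02 without PC3-DR replicate 3. TUBA1A ran from 0.03 without PC3 replicate 2 to 0.45 without PC3 replicate 1, and none of the 4 passed in any of these fits (lowest adjusted p = 0.662 in limma).

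**Figure D2:**
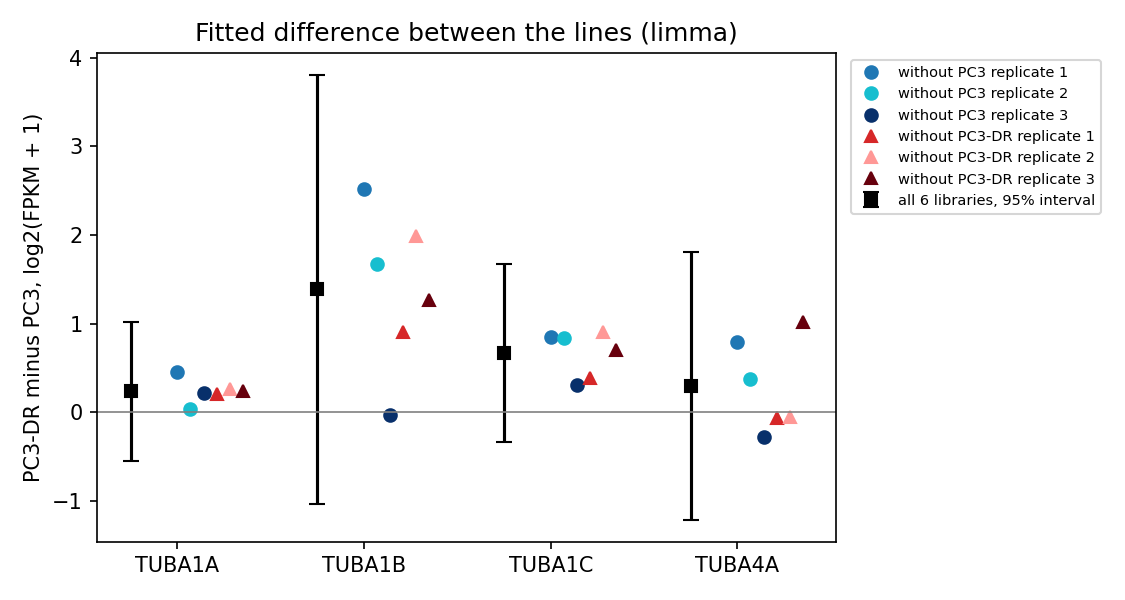
Fitted PC3-DR minus PC3 difference of each alpha-tubulin transcript on the log2(FPKM + 1) scale. Black squares with 95% intervals use all 6 libraries, and coloured circles and triangles leave out 1 PC3 or 1 PC3-DR library. All 4 intervals include 0, and TUBA1B moves between -0.03 and 2.52 with the library left out.

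The spread between libraries of a line differed strongly among the isotypes. The residual SD on the log2(FPKM + 1) scale was 2.00 for TUBA1B, 1.17 for TUBA4A, 0.57 for TUBA1C and 0.30 for TUBA1A, against a median of 0.54 over all tested transcripts. The SD of TUBA1B exceeded that of 99.9% of tested transcripts, and that of TUBA4A, which takes the values listed at 0 as levels, exceeded 98.2%. The mean level of TUBA1B was above that of 99.8% of tested transcripts, and that of TUBA1A, at 1.40 FPKM, above 50.9%. These ranks therefore set TUBA1B mostly against much lower transcripts, and its SD was not ranked among transcripts of like level. With a pseudocount of 0.1 the residual SD was 2.84 for TUBA4A and 2.47 for TUBA1B, so which of them varied more depends on the pseudocount. TUBA1C lay near the middle, above 53.5%, and TUBA1A above 15.7%, on a scale that understates changes of low transcripts. With a pseudocount of 0.1 the residual SD was 0.62 for TUBA1C and 0.52 for TUBA1A. In FPKM the highest PC3 value of TUBA1A was 3.01 times the lowest, against 2.33 times for TUBA1C. In PC3-DR these were 1.14 times for TUBA1A and 2.16 times for TUBA1C.

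Abundant transcripts as a class also differed between libraries. TUBA1B and TUBA1C were among 794 transcripts that reached 5 FPKM in 3 libraries or more, a class looked at after the values were seen. A transcript could enter it through the 3 libraries of a single line, so the filter itself can shape the differences and library shifts of the class. Comparisons with the class are descriptions only. PC3 replicate 3 had a class median of 2.79 FPKM and PC3-DR replicate 1 one of 10.9 FPKM, while the other 4 libraries had medians from 6.01 to 7.58 FPKM. The median PC3-DR minus PC3 difference of the class was 0.71 on the log2(FPKM + 1) scale, and 84.1% of its transcripts were above 0. The TUBA1C difference of 0.66 was larger than that of 45.7% of the class, close to the class median, and the TUBA1B difference was larger than that of 88.4%. Without PC3 replicate 3 the class median was 0.31.

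Set against the mean of the other 5 libraries on the log2(FPKM + 1) scale, PC3 replicate 3 had a median shift of -1.26 in the class, a shift of -1.24 in TUBA1C and one of -4.24 in TUBA1B. TUBA1C thus shifted about as much as the class did, and TUBA1B more. TUBA1B was 1 of 162 transcripts of the class, or 20.4%, that stood in PC3 replicate 3 under 10% of the median of the other 5 libraries. In each of the other libraries between 11 and 28 transcripts of the class stood that low. The same shifts in PC3-DR replicate 1 were 0.97 for the class, 1.06 for TUBA1C and 1.98 for TUBA1B. PC3-DR replicate 2 went the other way, with 0.15 for the class, -0.18 for TUBA1C and -0.61 for TUBA1B. The part of these library shifts in the alpha-tubulin values was not tested.

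**Figure D3:**
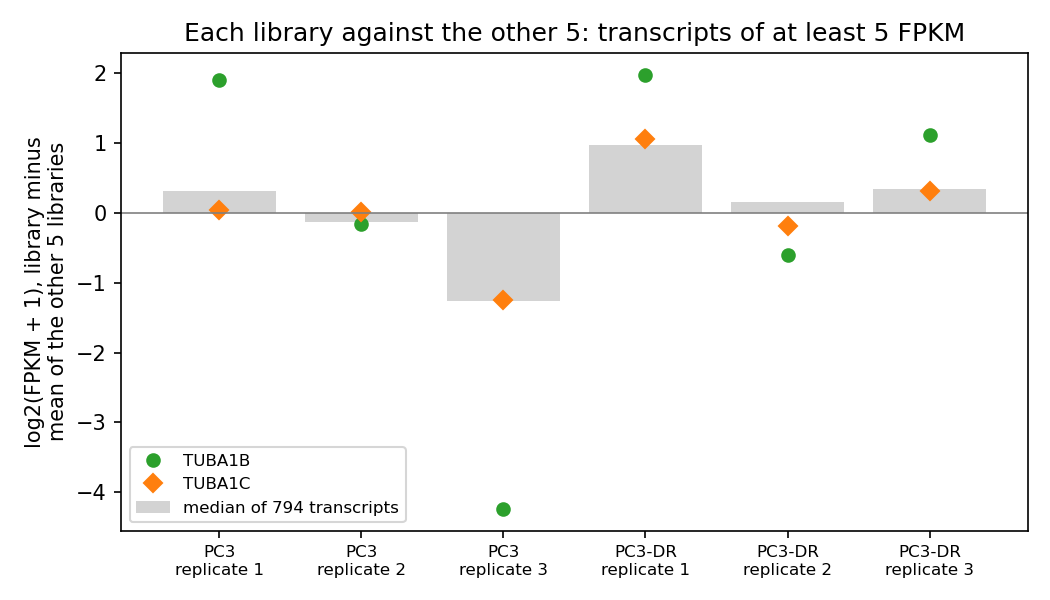
Each library against the mean of the other 5 on the log2(FPKM + 1) scale, for TUBA1B (circles), TUBA1C (diamonds) and the median of 794 transcripts that reached 5 FPKM in 3 libraries or more (grey bars). In PC3 replicate 3 the class median is at -1.26, TUBA1C at -1.24 and TUBA1B at -4.24.

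By level the isotypes fell into a higher and a lower pair. Mean levels over the 6 libraries were 27.4 FPKM for TUBA1B, 11.9 for TUBA1C and 1.40 for TUBA1A. TUBA4A belonged to the lower pair, with no value above 3.50 FPKM, and its comparisons below take the values listed at 0 as levels. Within libraries TUBA1C exceeded TUBA1A in 6 of 6, by 2.34 ± 0.59 on the log2(FPKM + 1) scale (SD, n = 6 libraries), and exceeded TUBA4A in 6 of 6, by 2.29 ± 0.91. TUBA1B exceeded TUBA4A in 6 of 6 libraries, by 2.84 ± 1.61, and TUBA1A in 5 of 6, by 2.89 ± 1.81. The sizes depend on the pseudocount, and with 5 in place of 1 they were 1.34, 1.26, 1.86 and 1.95 in the order given. PC3 replicate 3 was the exception, with TUBA1A at 1.12 FPKM above TUBA1B at 0.512 FPKM.

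Neighbours within each pair could not be ordered. TUBA1B exceeded TUBA1C in 5 of 6 libraries by 0.55 ± 1.40 (SD), with an adjusted p of 0.487 in the two-sided exact sign-flip permutation test. That difference was 0.24 without PC3 replicate 1 and 1.05 without PC3 replicate 3. TUBA4A exceeded TUBA1A in 4 of 6 by 0.06 ± 0.99, with an adjusted p of 0.906 in the same exact test. For the 3 differences with the same sign in 6 of 6 libraries the exact p was 0.0312, the smallest that 6 libraries allow, and the Benjamini-Hochberg adjusted p over all 6 pairs was 0.0625. The remaining pair, TUBA1B over TUBA1A, had an adjusted p of 0.0938 in the exact test, so no pair passed 0.05. These tests pool libraries of both lines.

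For PC3 replicates 1 to 3 the 4 transcripts summed to 67.9, 28.1 and 6.47 FPKM. For PC3-DR they summed to 80.1, 26.0 and 47.2 FPKM. Such a sum may leave out other alpha-tubulin transcripts. The sum averaged 34.2 ± 31.1 FPKM for PC3 and 51.1 ± 27.3 FPKM for PC3-DR (SD, n = 3 each), and the lines overlapped. These means depended on single libraries. The PC3 mean was 17.3 FPKM without replicate 1 and 48.0 FPKM without replicate 3. For PC3-DR the mean was 36.6 FPKM without replicate 1 and 63.7 FPKM without replicate 2. Median-of-ratios scaling gave means of 28.5 ± 26.5 for PC3 and 65.6 ± 61.0 for PC3-DR. Most of this sum came from TUBA1B and TUBA1C in all 6 libraries. TUBA1B made up 75.6%, 53.3% and 7.91% of it in PC3 and 67.2%, 43.6% and 68.5% in PC3-DR replicates 1 to 3. TUBA1C made up 16.6%, 39.2% and 74.7% in PC3 and 26.3%, 37.6% and 28.2% in PC3-DR. The isotype with the largest share was thus TUBA1B in 5 libraries and TUBA1C in PC3 replicate 3, where TUBA1A also had its highest share, 17.4%, against between 2.09% and 5.65% in the other 5.

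**Figure D4:**
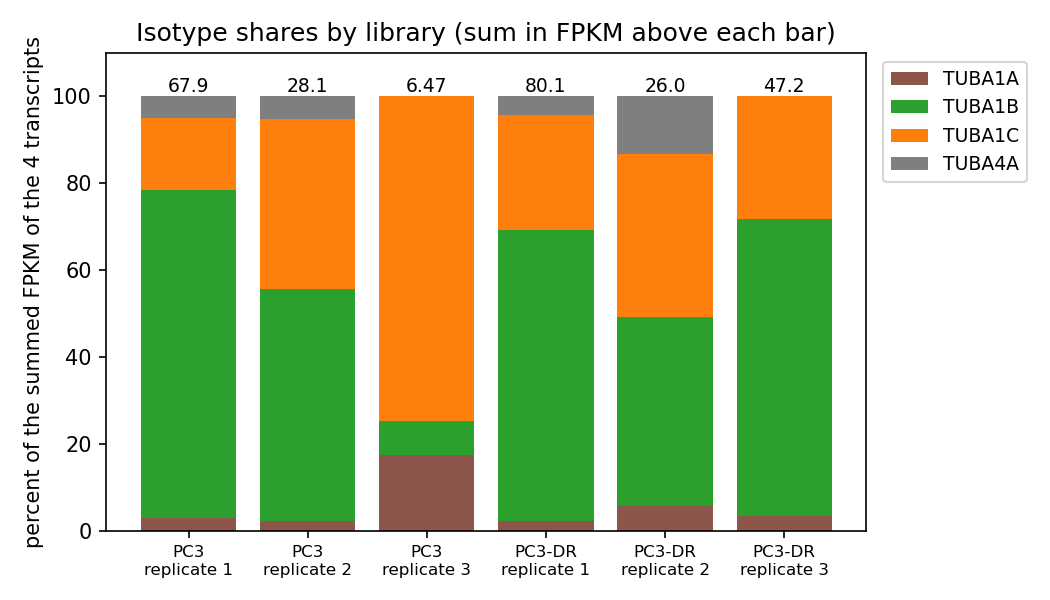
Share of each alpha-tubulin transcript in the summed FPKM of the 4, in percent, for each library, with the sum in FPKM above each bar. TUBA1B leads in 5 libraries with 43.6% to 75.6%, and TUBA1C leads in PC3 replicate 3 with 74.7% of a sum of 6.47 FPKM.

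TUBA1B and TUBA1C followed a similar order over the libraries. Their log2(FPKM + 1) levels had a Pearson r of 0.91 and a Spearman rho of 0.94 over the 6 libraries, which share their library totals and the shifts of the abundant class described above. Without PC3 replicate 3 and PC3-DR replicate 1, the libraries farthest from the TUBA1B median, r was 0.62 and rho 0.80 over 4 libraries. The ratio of TUBA1B to TUBA1C in FPKM was nevertheless uneven, with 4.56, 1.36 and 0.106 in PC3 and 2.55, 1.16 and 2.43 in PC3-DR replicates 1 to 3. Pairs that held TUBA1A or TUBA4A had r between 0.34 and 0.56 and rho between 0.38 and 0.77. The highest rho among these was that of TUBA1A with TUBA1B, and TUBA1A with TUBA1C had 0.66.

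Of 20432 tested transcripts with a mean of at least 1 FPKM, 217 had a Pearson r of at least 0.95 with TUBA1B over the 6 libraries, 262 with TUBA1C, 37 with TUBA4A and 19 with TUBA1A. The transcripts most like TUBA1B were ENST00000240922 and ENST00000327726, each with r = 0.992. For ENST00000327726 replicates 1 to 3 gave 5.92, 3.53 and 0.231 FPKM for PC3 and 7.47, 2.86 and 6.08 FPKM for PC3-DR, a pattern for which it was chosen. ENST00000240922 kept a narrow range, from 3.36 FPKM in PC3 replicate 3 to 5.20 FPKM in PC3 replicate 1. With 6 libraries and many transcripts, such values describe these libraries only.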

How the data were processed

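Per the labels' protocols, total RNA of PC3 and PC3-DR was sequenced on Illumina libraries. The authors deposited a table of mRNA and one of lncRNA transcript levels. The authors had scaled read numbers to transcript length and library total before deposit, as FPKM, which was read from the steps of the values because the file headers name no unit. The submitters' processing notes name HISAT2, TopHat2, StringTie, featureCounts, limma and DESeq, among others, without roles, and the mouse build mm9 although the organism is human. The annotation and strand setting behind the table are not given. 0 columns belonged to no sample.

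Library totals, lengths and whole reads were recovered from the steps of the values. Of 71088 mRNA-table transcripts above 0 in at least 3 libraries, nearly all (99.9986%) had a whole-number length between 200 and 60000 nt that gave whole reads within 0.08 in each library. These totals are estimates, of reads or of fragments.

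Transcripts reaching 1 FPKM in 3 or more of the 6 libraries entered limma 3.58.1 (R 4.3.3) on log2(FPKM + 1), which understates changes of low transcripts, with an intensity trend, two-sided, and Benjamini-Hochberg adjustment at 0.05. Isotypes were compared within libraries with exact sign-flip tests in Python 3.11.15. Scripts were tested on simulated data. The members and lists were chosen with earlier results of these data known. The transcripts named by likeness are the 2 with the highest r to the member of highest mean. A list of other tubulins, cofactors and modifiers, and one of cell type markers, were not analysed here, since no table used here pairs transcript identifiers with names. Alternatives covered the pseudocount, the filter, scaling, the variance model, a replicate block, voom on recovered reads and leaving out each library.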

Additional observations from a re-analysis of the deposited data

How the results depend on the processing

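None of the 4 alpha-tubulin transcripts passed in limma in any alternative run, where adjusted p lay between 0.481 and 0.999. TUBA1A and TUBA4A did not reach the filter of 5 FPKM and have no value there. In the settings that kept all 6 libraries the differences stayed above 0, between 0.08 and 0.47 for TUBA1A, 0.78 and 1.96 for TUBA1B, 0.12 and 0.97 for TUBA1C and 0.13 and 1.33 for TUBA4A. The low ends came from quantile normalization for TUBA1B and TUBA1C and from a pseudocount of 5 for the other two. Leaving out 1 library gave -0.03 to 2.52 for TUBA1B, with -0.035 without PC3 replicate 3. It gave -0.28 to 1.02 for TUBA4A, with -0.28 without PC3 replicate 3, and -0.07 and -0.06 when PC3-DR replicate 1 or 2 was left out.

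The count of called mRNA-table transcripts was 1 as planned in limma. It was 0 with median-of-ratios scaling, without the trend, with either pseudocount (0.1 or 5), without a filter, with the 5 FPKM filter or with voom on recovered reads, with between 57 and 3008 at an unadjusted p under 0.05. It was 6 with robust hyperparameters and between 0 and 1 when 1 library was left out. Replicate numbers gave no clear pairing. The correlations of deviations were 0.192, -0.004 and 0.093 between same-numbered libraries and from -0.182 to 0.113 between differently numbered ones. With the replicate block 0 passed, with 1707 at an unadjusted limma p under 0.05 against 1520 as planned. The block moved the SE from 0.68 to 0.38 for TUBA4A, 1.09 to 0.82 for TUBA1B, 0.45 to 0.40 for TUBA1C and 0.35 to 0.37 for TUBA1A.

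The order of TUBA4A over TUBA1A turned to -0.60 with a pseudocount of 0.1 and lay between -0.10 and 0.34 without 1 library (-0.05 without PC3 replicate 1 or 2, -0.08 without PC3-DR replicate 1, -0.10 without PC3-DR replicate 2). With pseudocounts of 0.1 and 5, TUBA1B over TUBA4A was 3.95 and 1.86, TUBA1B over TUBA1A 3.35 and 1.95, TUBA1C over TUBA4A 3.54 and 1.26, and TUBA1C over TUBA1A 2.94 and 1.34, each with the planned direction. With 5 libraries the smallest exact p is 0.0625. The cause of these shifts was not tested. TUBA1A rests on as few as 18 reads and TUBA4A, where above 0, on as few as 46.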
